A study of Mus musculus with 11 samples.

Results

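The 9 genes described here are the neuropilins Nrp1 and Nrp2, the plexin A genes Plxna1, Plxna2, Plxna3 and Plxna4, and the class 3 semaphorins Sema3a, Sema3c and Sema3f, taken by name from 48440 genes in a bulk RNA-seq count table and 32285 genes in single-cell matrices. All 9 were present in each table, and all 9 passed the filter on low counts in the cultures. The study removed Syncrip, which encodes an RNA-binding protein of the hnRNP family, from the mouse dorsal telencephalon. Its cKO animals carried floxed alleles of Syncrip (exons 2, 3 and 4) and Emx1-Cre, which acts in dorsal cortical progenitors and their progeny. Bulk RNA-seq covered 6 cultures of neural progenitor cells (NPCs) from E14.5 embryos, 3 WT and 3 cKO, grown with EGF and bFGF for several generations. Single-cell RNA-seq (scRNA-seq) covered the E14.5 dorsal telencephalon of 1 WT and 1 cKO embryo of a single litter. No label says whether the 3 cultures of a genotype came from separate embryos, although Y-linked counts, given below, differed within each genotype. The p-values below therefore measure only the spread between these cultures, which may be in part technical. The LACE-seq libraries of the series were left aside.

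Neuropilins are single-pass receptors that bind secreted class 3 semaphorins but have a short cytoplasmic tail, and plexin A proteins join them in one complex and carry the signal into the cell through a GTPase-activating domain. Sema3a acts mainly through Nrp1, Sema3f mainly through Nrp2, and Sema3c can use both. In the developing cortex these genes are known for guiding axons and for steering and polarizing migrating neurons, while endothelial cells use neuropilins as co-receptors for VEGF.

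On mm10, with spans as the count table gives them, the receptors lie apart: Nrp1 (ENSMUSG00000025810) at chr8:128359073-128505462 and Nrp2 (ENSMUSG00000025969) at chr1:62703285-62818695. The plexin A genes are Plxna1 (ENSMUSG00000030084) at chr6:89316314-89362620, Plxna2 (ENSMUSG00000026640) at chr1:194618218-194816869, Plxna3 (ENSMUSG00000031398) at chrX:74329066-74344689 and Plxna4 (ENSMUSG00000029765) at chr6:32144268-32588192. The ligands are Sema3a (ENSMUSG00000028883) at chr5:13125414-13602565, Sema3c (ENSMUSG00000028780) at chr5:17574281-17730268 and Sema3f (ENSMUSG00000034684) at chr9:107681500-107710475. Counts were summed per gene, so no single exon can be read from them.

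Cultures held 16962903 to 22708400 counts, with 2.91% to 4.80% on mitochondrial genes. Syncrip itself read 77.9, 79.8 and 79.9 CPM (counts scaled to the size of the library) over the 3 WT and 90.3, 88.7 and 81.5 CPM over the 3 cKO cultures, with a log2 difference of 0.13 ± 0.08 (SE) and an adjusted p of 0.18 (edgeR). A count over the whole gene also takes reads of the exons that remain, so it is no check of the deletion, and genotypes here rest on the labels. Y-linked counts were present in WT cultures 1 and 2 and cKO culture 1 and at or near 0 in the other 3 cultures. The WT embryo had 22062 UMIs on 4 Y-linked genes and the cKO embryo 211, so sex and genotype cannot be told apart in the embryos. In the table of the cultures some genes of neural cells, such as Sox2, Tubb3, Neurod1 and Dlx1, are listed at 0 in every culture, and they were not read as absent. Only 1 of 8 endothelial and 1 of 8 microglial markers passed the filter in the cultures, and 4 and 5 of them are listed at 0. Summed CPM of the endothelial list was 0.991 to 1.43 in WT and 1.25 to 1.47 in cKO cultures, and that of the microglial list 0.39 to 1.12 and 1.32 to 2.27.

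In cKO cultures both neuropilins and Sema3c were lower, and Sema3a and Sema3f were higher. Of the plexin A genes, Plxna1 and Plxna4 were lower by smaller amounts, and Plxna2 and Plxna3 overlapped between genotypes. At an adjusted p below 0.05 (edgeR's quasi-likelihood test, Benjamini-Hochberg adjusted over all 14432 genes tested), 5 of 9 members were lower (Nrp1, Nrp2, Plxna1, Plxna4, Sema3c) and 2 were higher (Sema3a, Sema3f). Over all genes tested, 19.8% were called lower and 19.7% higher. The median log2 fold change was -0.23 over the 9 members and 0.00202 over all genes. Nrp1 and Nrp2 were among the falling genes that the study singled out from these same cultures, so their direction is not independent evidence. In bulk samples, fewer cells of a type and less RNA per cell cannot be told apart.

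Values are given in the order of cultures 1 to 3. Nrp2, the neuropilin that prefers Sema3f, read 54.1, 60.5 and 74.1 CPM (WT) against 18.8, 17.3 and 17.9 CPM (cKO). Every cKO culture lay below every WT culture, and the cKO mean was 28.6% of the WT mean. The log2 fold change was -1.80 ± 0.12 (SE, n = 3 and 3 cultures; edgeR adjusted p = 1.18e-07). Nrp1, the receptor of Sema3a, read 60.3, 53.5 and 64.9 CPM (WT) against 37.1, 35.8 and 37.3 CPM (cKO). Its groups did not overlap either, and it fell by 0.70 ± 0.10 on the log2 scale (edgeR adjusted p = 8.69e-05). Per kilobase of exon, the level of Nrp1 was 1.06 to 1.35 times that of Nrp2 in WT cultures and 2.39 to 2.52 times in cKO cultures, so Nrp2 was the more reduced of both neuropilins.

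**Figure D1:**
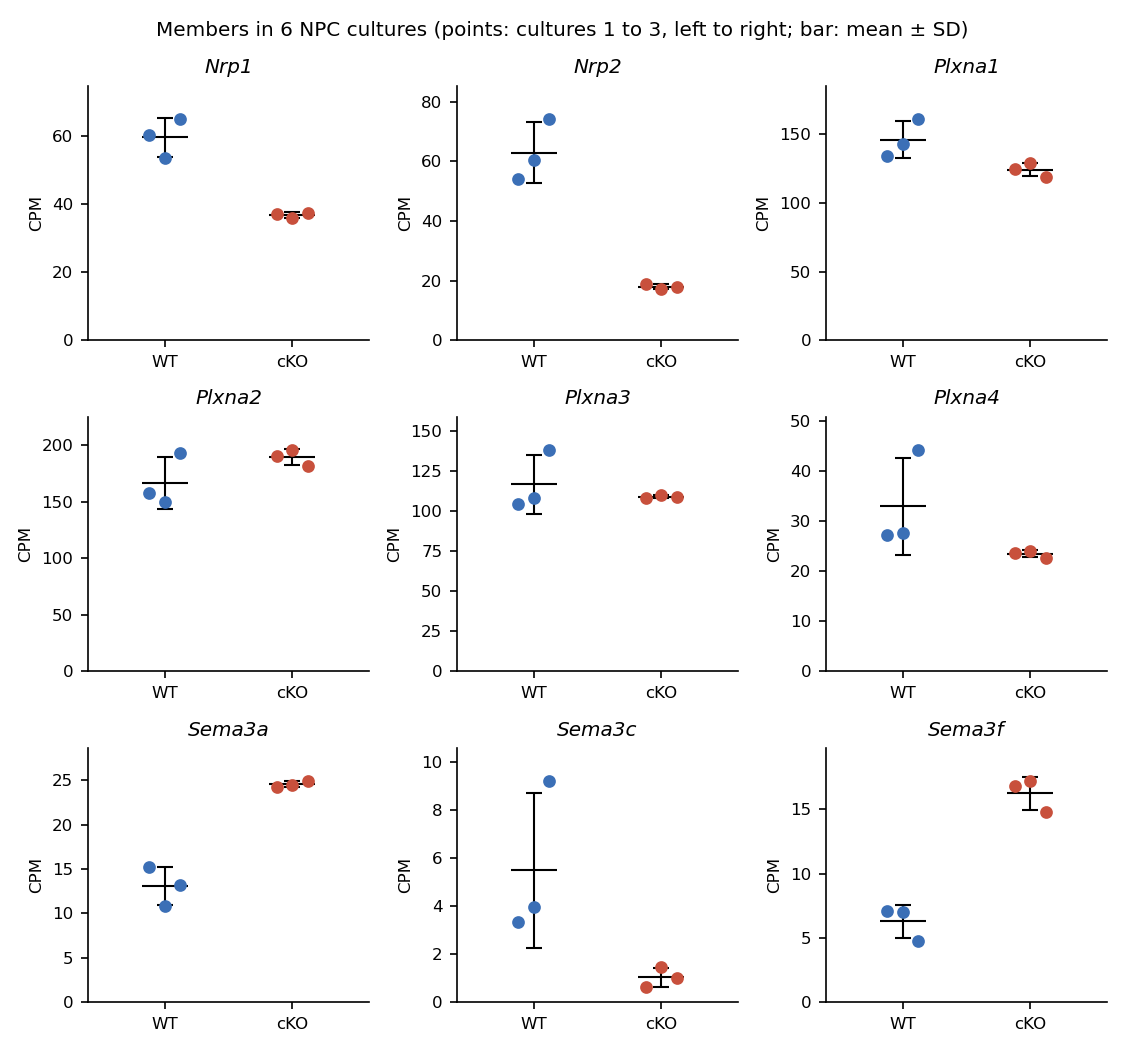
Level of each gene in CPM (y axis, from 0) in the WT and cKO cultures (x axis), with 1 point per culture and the mean ± SD as a bar. Nrp1, Nrp2 and Sema3c are lower and Sema3a and Sema3f higher in all 3 cKO cultures, while Plxna2 and Plxna3 overlap between genotypes.

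Plexin A genes encode the signaling part of the receptor, and Plxna1, Plxna2 and Plxna3 were the most abundant members per length. Plxna4 read 27.2, 27.7 and 44.3 CPM (WT) against 23.7, 24.1 and 22.7 CPM (cKO), with a log2 fold change of -0.50 ± 0.16 (edgeR adjusted p = 0.0225). WT culture 3 was the highest, and without it the log2 difference was -0.23 (edgeR adjusted p = 0.108), while without cKO culture 1 or cKO culture 3 the adjusted p was 0.0517 and 0.0752 (edgeR). Plxna1 read 134, 143 and 161 CPM (WT) against 125, 129 and 119 CPM (cKO), a log2 fold change of -0.23 ± 0.08 (edgeR adjusted p = 0.0338). This call was lost when any 1 of WT cultures 2 and 3 and cKO cultures 1, 2 and 3 was left out, with edgeR adjusted p values from 0.0502 to 0.152. Of the exon bases of Plxna1, 10.7% are shared with the antisense gene Gm26811, and since the strand setting of the counting is not given, their reads cannot be told apart.

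Plxna2 read 157, 150 and 193 CPM (WT) against 191, 196 and 182 CPM (cKO), so that WT culture 3 lay within the cKO range. Its log2 difference was 0.18 ± 0.09 (edgeR adjusted p = 0.134), and without WT culture 3 it was 0.30 (edgeR adjusted p = 0.0106). Plxna3, which lies on the X chromosome, read 104, 108 and 138 CPM (WT) against 108, 110 and 109 CPM (cKO) and overlapped between genotypes (log2 difference -0.10 ± 0.10, edgeR adjusted p = 0.434).

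The ligands moved in opposite directions. Sema3c, a ligand for both neuropilins, read 3.33, 3.95 and 9.19 CPM (WT) against 0.638, 1.46 and 1.01 CPM (cKO), from 71 to 206 counts per WT culture and 13 to 25 per cKO culture. The groups did not overlap, and the log2 fold change was -2.43 ± 0.41 (edgeR adjusted p = 0.000406). WT culture 3 was again the highest, and without it the log2 fold change was -1.83. Sema3f read 7.07, 7.02 and 4.77 CPM (WT) against 16.8, 17.2 and 14.8 CPM (cKO), a rise of 1.37 ± 0.16 on the log2 scale (edgeR adjusted p = 2.17e-05). Sema3a, the ligand that binds Nrp1, read 15.2, 10.9 and 13.3 CPM (WT) against 24.3, 24.5 and 24.9 CPM (cKO). It rose by 0.90 ± 0.13 on the log2 scale (edgeR adjusted p = 8.3e-05), and for both ligands each cKO culture lay above each WT culture.

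**Figure D2:**
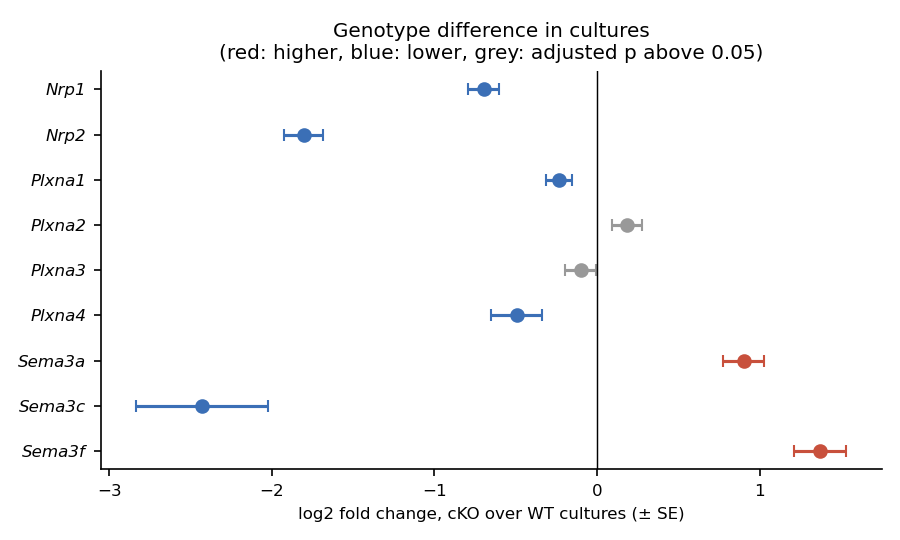
Log2 fold change of each gene, cKO over WT cultures (x axis), with its SE as a bar, from a fit over 14432 genes. The blue points lie at -2.43 to -0.23, the red points of Sema3a and Sema3f at 0.90 and 1.37, and the grey points of Plxna2 and Plxna3 did not pass the test.

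All 3 cKO cultures lay below all 3 WT cultures for Nrp1, Nrp2, Plxna1, Plxna4 and Sema3c, and above them for Sema3a and Sema3f. Such separation was found in 24.7% of all genes tested in the lower and 25.7% in the higher direction. A called fall of at least 2-fold was found for Nrp2 and Sema3c, against 4.23% of all genes, and a called rise of at least 2-fold for Sema3f, against 3.26%.

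Levels per kilobase of exon place the receptors in order. In WT cultures Plxna1 (16.1 CPM per kb) and Plxna3 (14.8) overlapped, and were followed by Plxna2 (9.72), by Nrp1 (6.09) and Nrp2 (5.31), which overlapped, and by Plxna4 (2.34). Sema3f (1.21), Sema3a (0.944) and Sema3c (0.769) came last, each overlapping with its neighbour. In cKO cultures Plxna3 (13.8) and Plxna1 (13.7) overlapped and all other neighbours were separate, with Plxna2 (11.04), Nrp1 (3.75), Sema3f (3.12), Sema3a (1.77), Plxna4 (1.67), Nrp2 (1.52) and Sema3c (0.145) in that order. The summed plexin A level was 39.1 to 49.7 CPM per kb in WT and 39.2 to 41.3 in cKO cultures. Summed neuropilins were 10.6 to 12.9 in WT and 5.12 to 5.38 in cKO cultures. The plexin A to neuropilin ratio per length was therefore 3.65 to 3.85 in WT and 7.36 to 8.06 in cKO cultures, without overlap. Sema3a per length was 0.742 to 2.34 times Sema3c in WT cultures and 8.65 to 19.6 times in cKO cultures.

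Promoter windows are shown for the 3 members with the clearest falls and for Sema3a, which rose, because these moved together or against each other in the same cultures. RefSeq windows on GRCm38.p6 run from 250 bases before to 50 bases after the annotated start, and 6 of 9 members matched (Nrp1, Nrp2, Plxna2, Plxna3, Sema3a and Sema3c). Letters searched on both strands were CAGATG and CAGCTG, E-box forms bound by proneural factors, GGGCGG, the core of the GC box, and TATAAA. Capitals mark the matches.
Nrp1, chr8:128358823-128359122, plus strand: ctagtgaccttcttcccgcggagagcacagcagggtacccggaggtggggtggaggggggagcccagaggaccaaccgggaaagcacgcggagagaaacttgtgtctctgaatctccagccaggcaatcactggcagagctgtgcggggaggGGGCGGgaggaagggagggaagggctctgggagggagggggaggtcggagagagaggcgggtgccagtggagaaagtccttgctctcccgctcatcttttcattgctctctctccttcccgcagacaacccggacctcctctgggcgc
Nrp2, chr1:62703067-62703366, plus strand: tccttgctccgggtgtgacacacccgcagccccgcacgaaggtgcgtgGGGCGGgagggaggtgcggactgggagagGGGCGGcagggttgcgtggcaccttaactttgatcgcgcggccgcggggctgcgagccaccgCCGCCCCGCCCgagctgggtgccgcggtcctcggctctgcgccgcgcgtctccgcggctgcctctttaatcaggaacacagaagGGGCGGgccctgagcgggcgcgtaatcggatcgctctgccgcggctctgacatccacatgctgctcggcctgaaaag
Sema3c, chr5:17574566-17574865, plus strand: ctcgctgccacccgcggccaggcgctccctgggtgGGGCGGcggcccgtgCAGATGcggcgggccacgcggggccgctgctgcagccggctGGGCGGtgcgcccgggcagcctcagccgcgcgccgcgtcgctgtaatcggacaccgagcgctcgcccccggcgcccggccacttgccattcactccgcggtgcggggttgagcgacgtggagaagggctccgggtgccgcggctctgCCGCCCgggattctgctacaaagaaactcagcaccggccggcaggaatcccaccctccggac
Sema3a, chr5:13396534-13396833, plus strand: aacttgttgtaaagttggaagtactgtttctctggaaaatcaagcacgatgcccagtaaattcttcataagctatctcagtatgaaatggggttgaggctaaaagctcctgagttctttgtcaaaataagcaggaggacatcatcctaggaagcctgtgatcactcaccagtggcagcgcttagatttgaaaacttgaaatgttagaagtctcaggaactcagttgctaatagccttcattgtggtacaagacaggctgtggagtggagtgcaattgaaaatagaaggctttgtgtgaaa
GGGCGG occurred 1 time in the window of Nrp1, 5 times in that of Nrp2, where a pair of matches overlap by 1 base, 3 times in that of Sema3c and 0 times in that of Sema3a. Of 32851 promoters of the same length, 35.7% held it. CAGATG occurred once among the 6 windows, in Sema3c (17.2% of all promoters), CAGCTG in none (16.3%) and TATAAA in none (13.6%). The window of Sema3c was 75.7% GC with 42 CpG and that of Sema3a 41.3% GC with 2 CpG, against medians of 52.7% and 7 over all promoters. The Sema3a window lies inside the gene's span in the count table, not at its start. A match is a description of these letters, and nothing about binding follows from it.

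Other genes of the pathway were read from the same fit, in which 19.8% of all genes were called lower and 19.7% higher. Among 4 tested co-receptors of the Ig superfamily, which join neuropilins in axons, 3 fell: Cntn2 (log2 fold change -3.18 ± 0.30), L1cam (-3.06 ± 0.21) and Chl1 (-1.23 ± 0.09), while Nrcam read 309 and 286 CPM and was not called. The median of this list was -2.15. Among 19 tested carriers of the plexin A signal, 9 fell and 3 rose. The largest falls were of Dpysl5 (-1.80 ± 0.12), Cdk5r1 (-1.27 ± 0.10), which activates the kinase Cdk5, and Crmp1 (-0.68 ± 0.12), and the rises were of Farp2 (0.54 ± 0.08), Dpysl4 (0.30 ± 0.11) and Rap1a (0.27 ± 0.09). Dpysl5, Dpysl4 and Crmp1 belong to the collapsin response mediator family that relays Sema3a.

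Among 13 transmembrane and anchored semaphorins, 8 fell and 2 rose. Sema4f (-1.24 ± 0.25), Sema4d (-1.02 ± 0.11) and Sema6b (-0.74 ± 0.13) fell the most, and Sema5b (0.60 ± 0.10) and Sema6d (0.31 ± 0.08) rose. Of the remaining class 3 group, Sema3e (-1.10 ± 0.23) and its receptor Plxnd1 (-0.35 ± 0.10) fell, Sema3d (0.48 ± 0.15) rose, and Sema3b was not called. Plexin B and C genes gave 1 fall, of Plxnb2 (-0.31 ± 0.07), among 4. VEGF ligands and receptors gave 1 fall, of Vegfb (-0.52 ± 0.10), among 5 tested, so that the called shares of these last lists were near those over all genes.

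Genes of other cell states moved in the same cultures, beside the 19.8% lower and 19.7% higher of all genes. Of 14 tested genes of neuron differentiation, 11 fell and 0 rose, with a median log2 fold change of -0.72, led by Stmn2 (-6.56 ± 0.26) and the transcription factor Neurod6 (-4.14 ± 0.28). Of 7 tested astrocyte genes 6 fell (median -0.89), including Gjb6 (-2.20 ± 0.14), Aqp4 (-2.06 ± 0.11) and Agt (-1.94 ± 0.19). Summed CPM of the neuron list was 3058 to 3280 in WT and 2698 to 2808 in cKO cultures. Of 9 tested radial glia genes 4 fell and 3 rose, of 8 oligodendrocyte lineage genes 3 fell and 2 rose, and of 6 tested ventral telencephalon genes 3 fell and 0 rose. The part of these shifts in the lower Nrp1, Nrp2 and Sema3c counts was not tested.

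In the embryos, 8214 of 8289 WT and 9560 of 9659 cKO barcodes were kept, with medians of 11705 and 11012.5 UMIs per cell, and 22 barcodes occurred in both libraries. Cells were clustered without the 9 genes and their pathway, and clusters were named from marker genes as "-like" classes: apical progenitors (AP-like), intermediate progenitors (IP-like), migrating neurons, immature neurons of the deep layers, ganglionic eminence (GE) cells outside the Emx1-Cre domain, and 5 small classes. Clusters 5 and 7 of 27 stayed unnamed. With 1 embryo per genotype there is no test between genotypes, and all intervals below are 95% intervals that cover counting error only. Syncrip UMIs, from a 3′ kit, came to 314 CPM (WT) and 323 CPM (cKO) in AP-like cells. Where in the gene they fall was not checked, so they are no check of the deletion.

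Nrp1 and Nrp2 peaked in migrating-neuron-like cells. Nrp1 read 34.1 CPM (31.0 to 37.4) in WT AP-like, 176 CPM (168 to 185) in IP-like, 728 CPM (716 to 739) in migrating-neuron-like and 224 CPM (219 to 229) in immature-neuron-like cells. In the cKO embryo these levels were 46.3, 262, 695 and 129 CPM. Nrp2 read 5.21, 37.6, 106 and 13.7 CPM in the same 4 WT classes and 7.505, 36.6, 117 and 18.4 CPM in those of the cKO embryo. Among the named classes, by the mean of both libraries, endothelial-like cells came next for both genes. For Nrp2 they overlapped with microglia-like cells, where cKO read 92.7 CPM. The unnamed cells, left out of this order, held 5312 WT and 2898 cKO UMIs of Nrp1. In endothelial-like cells WT and cKO read 271 and 346 CPM of Nrp1 and 70.7 and 83.6 CPM of Nrp2.

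Free RNA in the droplets can add to the counts of every class. Red-blood-cell-like cells, which should lack these genes, read 22.2 CPM of Nrp1 in WT (5 UMIs) and 135 CPM in cKO (33 UMIs), 48.8 and 139 CPM of Plxna4, and 8.88 and 16.4 CPM of Nrp2. AP-like Nrp1 and Plxna4 lay above these levels in WT (34.1 and 56.8 CPM) and below them in cKO (46.3 and 88.2 CPM). AP-like Nrp2 lay below them in both libraries. Red-blood-cell-like values rest on few UMIs of shallow cells (medians of 3537 and 3099.5 UMIs against 12455 and 12677 in AP-like cells). Their CPM is thus no floor for deeper classes. In the cKO library, Cajal-Retzius-like cells read 23.2 CPM of Nrp1 and AP-like cells 46.3 CPM, both below 135 CPM. Whether these AP-like counts are expression or free RNA cannot be told, and they are not read as expression. GE-like Nrp1 (91.1 CPM in WT and 83.4 CPM in cKO) lay above the WT but below the cKO red-blood-cell-like level. So did immature-neuron-like Nrp1 (224 and 129 CPM). Immature-neuron-like Nrp2 (13.7 and 18.4 CPM) lay above the level of its own library. That level rests on 2 WT and 4 cKO UMIs, and its interval held the immature-neuron-like value. Sema3a in AP-like cells lay above the red-blood-cell-like level and its interval in both libraries. Plxna2 in AP-like cells read 180 and 199 CPM, above the red-blood-cell-like 48.8 and 164 CPM but, in cKO, within the interval of the latter (117 to 223).

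**Figure D3:**
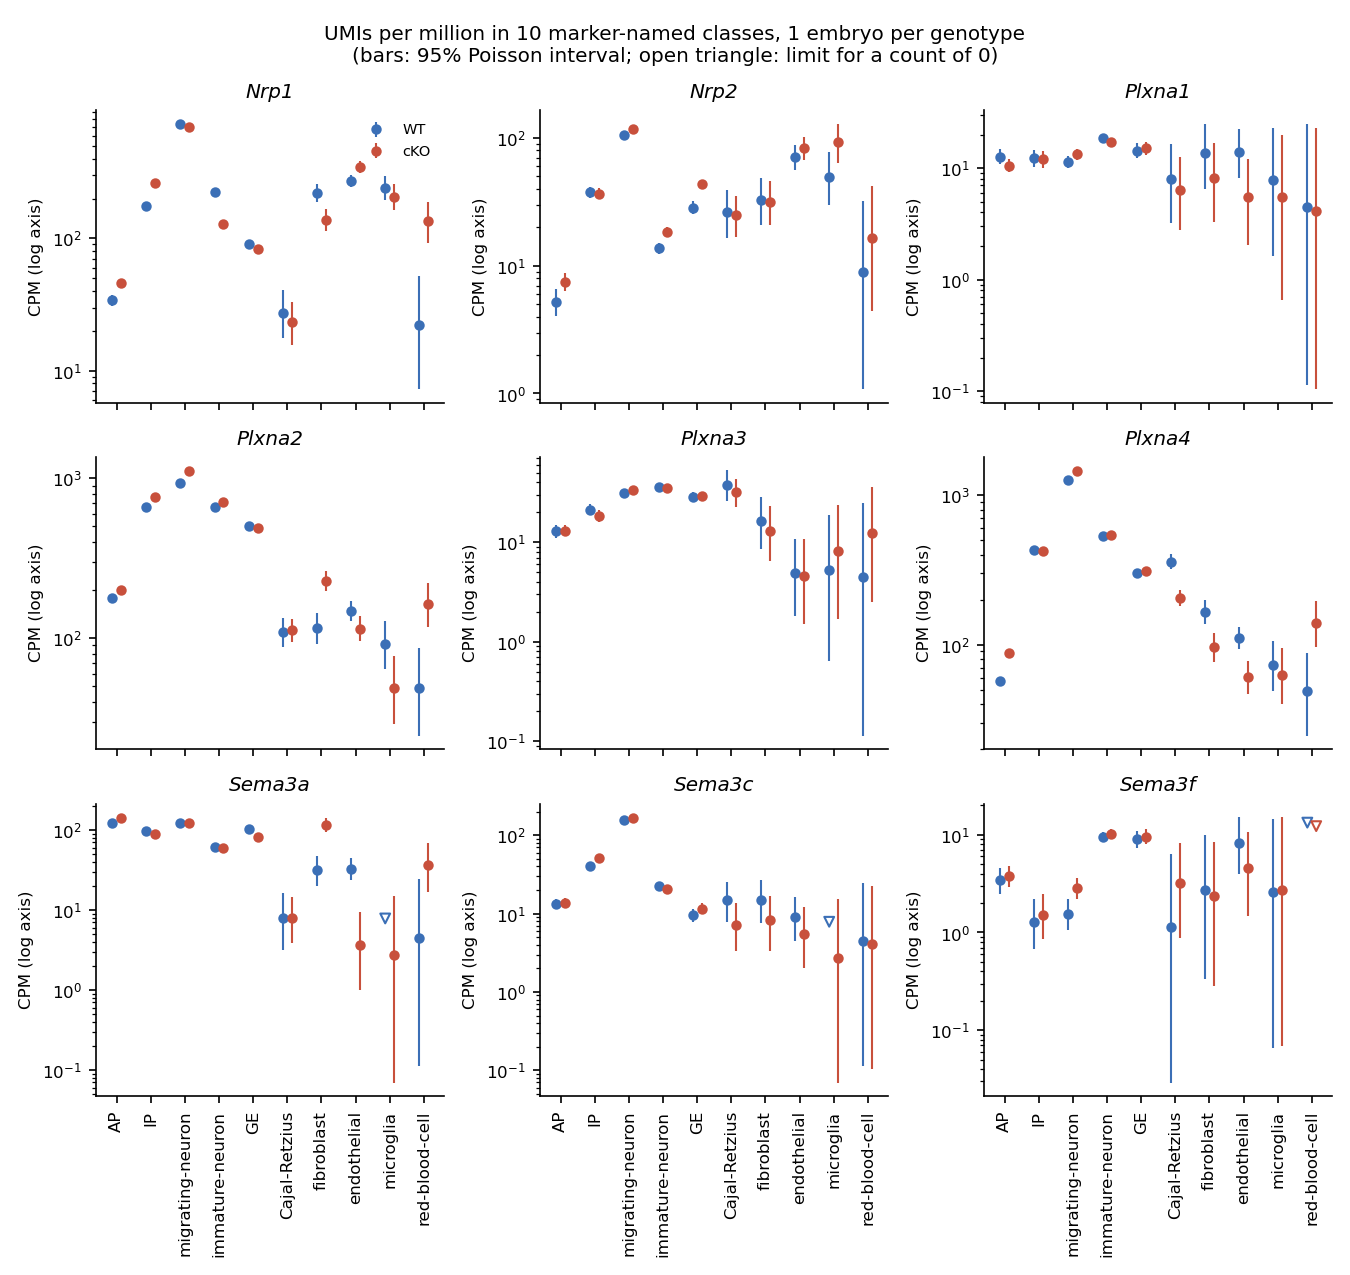
Level in CPM (y axis, log scale) of each gene in 10 marker-named classes (x axis) of the WT and cKO embryo, with 95% Poisson intervals and an open triangle for the limit that a count of 0 allows. Nrp1, Nrp2, Plxna2, Plxna4 and Sema3c peak in migrating-neuron-like cells, and Sema3a is about as high in AP-like as in migrating-neuron-like cells.

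Plxna2 and Plxna4 had the same highest class as the neuropilins. Plxna4 read 56.8 CPM in WT AP-like, 429 CPM in IP-like, 1265 CPM in migrating-neuron-like, 535 CPM in immature-neuron-like and 300.3 CPM in GE-like cells. Plxna2 was more even, at 180, 664, 941, 666 and 506 CPM in these classes. Plxna3 ran from 12.8 CPM in AP-like to 36.0 CPM in immature-neuron-like cells of the WT embryo, which overlapped with Cajal-Retzius-like cells (37.6 and 31.9 CPM). Plxna1 was flat, between 11.4 and 18.7 CPM over the 5 main classes of the WT embryo, highest in immature-neuron-like cells.

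Ligands had separate patterns. Sema3c read 157 and 165 CPM in migrating-neuron-like cells of the WT and cKO embryo and 9.55 to 50.9 CPM in the other main classes. Sema3a read 121 and 140 CPM in AP-like and 122 CPM in both libraries in migrating-neuron-like cells, classes whose ranges overlapped, and 61.6 and 59.8 CPM in immature-neuron-like cells. In WT microglia-like cells Sema3a had 0 UMIs, which allows up to 7.85 CPM. Sema3f was sparse, at 9.44 and 10.2 CPM in immature-neuron-like and 8.996 and 9.59 CPM in GE-like cells, which overlapped, and 1.28 and 1.52 CPM in IP-like cells.

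Order among the 10 named classes, by the mean of both libraries, differed beyond the range of the libraries only in places. For Nrp1, migrating-neuron-like, then endothelial-like cells stood apart, microglia-like, IP-like, fibroblast-like and immature-neuron-like cells overlapped with their neighbours in the order, and Cajal-Retzius-like cells were last (27.4 and 23.2 CPM). For Nrp2, endothelial-like and microglia-like cells overlapped, as did IP-like, GE-like and fibroblast-like cells, and AP-like cells were last. For Plxna4, migrating-neuron-like, immature-neuron-like and IP-like cells each stood apart from the next class. For Sema3c, migrating-neuron-like, IP-like and immature-neuron-like cells did so.

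Between genotypes, Nrp1 showed opposite ratios in different classes. In immature-neuron-like cells it was 224 CPM in the WT and 129 CPM in the cKO embryo, a log2 ratio of -0.80 (-0.86 to -0.75). The cKO level was no higher than the 135 CPM of cKO red-blood-cell-like cells, but those cells are shallower and give no floor for this class. In IP-like cells Nrp1 was 176 and 262 CPM, a log2 ratio of 0.57 (0.48 to 0.66). In migrating-neuron-like cells the ratio was -0.07 (-0.10 to -0.03) and in GE-like cells -0.13 (-0.25 to -0.0029). For scale, 90% of the genes with at least 200 UMIs in a class lay between -0.27 and 0.30 in immature-neuron-like cells and between -0.27 and 0.31 in IP-like cells. This span was -0.28 to 0.36 in AP-like, -0.28 to 0.40 in migrating-neuron-like and -0.25 to 0.29 in GE-like cells. Within these classes, all 4 IP-like clusters had a higher Nrp1 ratio in cKO (0.43 to 0.71), and 3 of 4 immature-neuron-like clusters had a lower one (-1.35 in cluster 3, -1.19 in cluster 14 and -0.58 in cluster 0), while the interval of cluster 10 held 0 (-0.07). Among migrating-neuron-like clusters it was 0.40 in cluster 2, which has Neurod1 among its leading genes, -0.10 in cluster 1 and -0.69 in cluster 12, which held 103 WT and 435 cKO cells and was led by Tafa1 and Tfap2d.

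**Figure D4:**
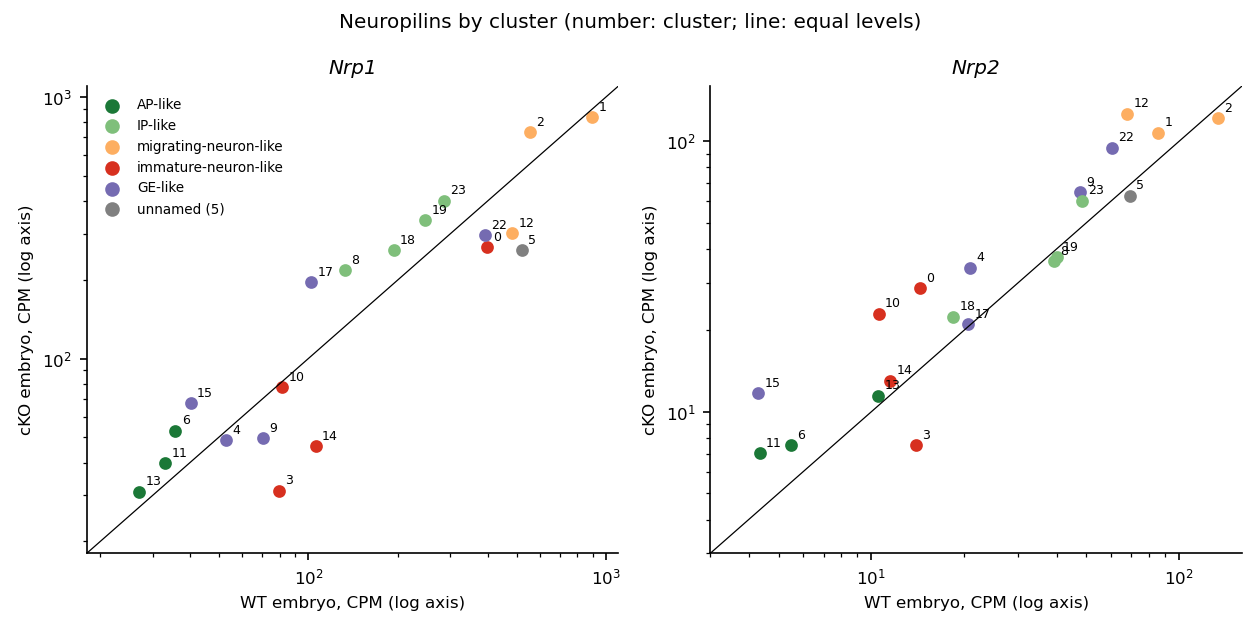
Level of Nrp1 (left) and Nrp2 (right) in the WT embryo (x axis) against the cKO embryo (y axis), in CPM on log axes, with 1 numbered point per cluster and the line of equal levels. For Nrp1 the 4 IP-like clusters lie above the line. Cluster 3 of the immature-neuron-like cells lies farthest below the line, at 79.8 CPM (WT) and 31.3 CPM (cKO). Red-blood-cell-like cells read 22.2 CPM (WT) and 135 CPM (cKO) on few UMIs of shallow cells, which is no floor for deeper clusters.

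Nrp2 had a higher ratio in GE-like cells, 28.5 against 43.3 CPM (log2 0.60, 0.40 to 0.81). In immature-neuron-like cells it was also higher, 13.7 against 18.4 CPM (0.42, 0.24 to 0.61), beside 8.88 and 16.4 CPM in red-blood-cell-like cells. The latter ratio hid opposite clusters, 0.99 in cluster 0 and 1.13 in cluster 10 against -0.89 in cluster 3, and it turned to -0.06 with clustering at resolution 1.2. GE-like cells lie outside the domain in which Emx1-Cre is known to act, and whether their Nrp2 ratio differs from that of the cortical classes was not tested. In IP-like cells the ratio was -0.04 (-0.25 to 0.17).

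**Figure D5:**
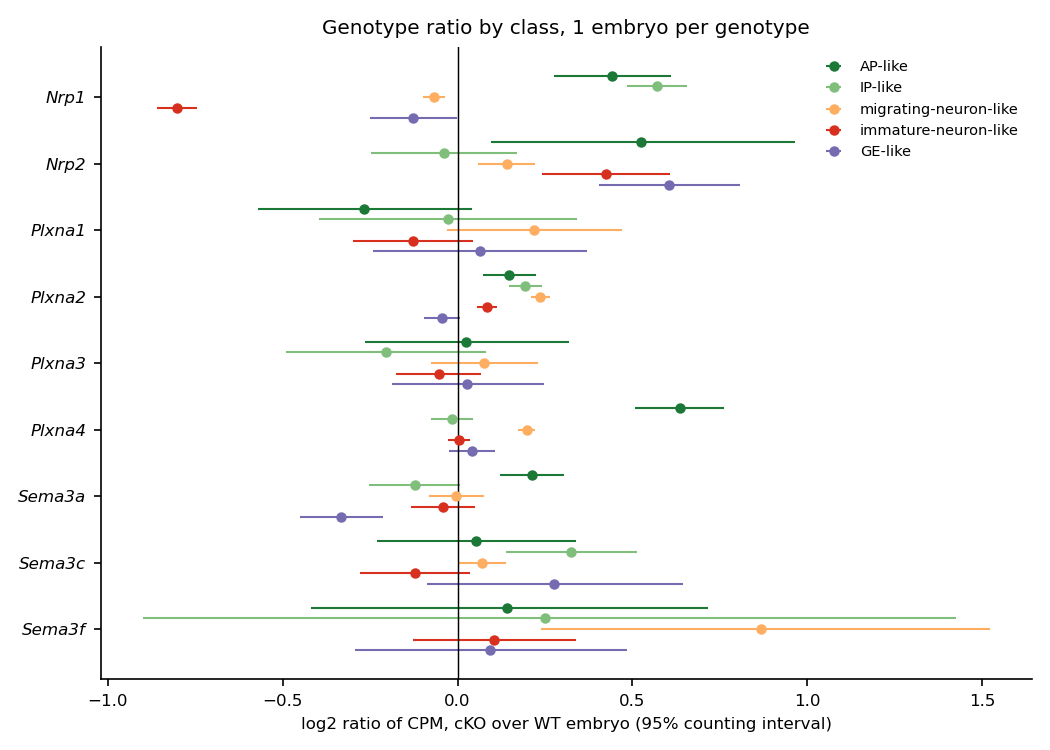
Log2 ratio of CPM, cKO over WT embryo (x axis), of each gene in the 5 main classes (colors), with the 95% interval for counting error. Nrp1 lies at -0.80 in immature-neuron-like and 0.57 in IP-like cells, and the plexin A genes lie within 0.27 of 0 in all classes but Plxna4 in AP-like cells.

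Plexin A ratios were smaller. Plxna2 was higher in cKO in migrating-neuron-like (0.24, 0.21 to 0.26) and IP-like cells (0.19, 0.15 to 0.24), and Plxna4 in migrating-neuron-like cells (0.20, 0.17 to 0.22), although cluster 12 gave -0.33 and -0.42 and equal weights for the clusters turned Plxna4 to -0.07. The Plxna4 ratio of 0.63 (0.51 to 0.76) in AP-like cells came from levels of 56.8 and 88.2 CPM, beside 48.8 and 139 CPM in red-blood-cell-like cells. Plxna1 and Plxna3 had intervals that held 0 in all 5 main classes.

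Sema3a was lower in GE-like cells of the cKO embryo (104 against 82.8 CPM, log2 -0.33, -0.45 to -0.21) and higher in AP-like cells (0.21, 0.12 to 0.30). Sema3c was higher in IP-like cells (40.7 against 50.9 CPM, log2 0.33, 0.14 to 0.51). In migrating-neuron-like cells its ratio of 0.07 (0.0022 to 0.14) joined cluster 12, where WT read 448 CPM and cKO 246 CPM, with clusters 1 and 2 at -0.07 and 0.14, and equal weights for the clusters gave -0.44. Sema3f in migrating-neuron-like cells rested on 33 WT and 63 cKO UMIs (1.55 and 2.83 CPM). Among sparse classes, Sema3a had 40 UMIs in 24 WT and 4 UMIs in 33 cKO endothelial-like cells, and 23 and 99 UMIs in 117 and 108 fibroblast-like cells. That class also held pericyte markers, summed to 5562 CPM in WT and 3541 CPM in cKO, beside fibroblast markers at 2971 and 5084 CPM, and their part in the Sema3a counts was not tested.

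Set side by side, the log2 values of cultures (read counts per gene) and embryos (UMIs of a 3′ kit), which are unlike measures, were as follows. Nrp1 was lower in cKO cultures (-0.70), and its ratio was -0.34 over all cells of the embryos. By class it was 0.44 in AP-like, 0.57 in IP-like, -0.07 in migrating-neuron-like and -0.80 in immature-neuron-like cells. Nrp2 was lower in cKO cultures (-1.80), and its ratio was 0.11 over all cells. By class it was 0.53 in AP-like, -0.04 in IP-like, 0.14 in migrating-neuron-like, 0.42 in immature-neuron-like and 0.60 in GE-like cells. AP-like counts of both neuropilins cannot be told from free RNA. Sema3c was lower in cKO cultures (-2.43), with ratios of -0.06 over all cells, 0.05 in AP-like, 0.33 in IP-like and 0.07 in migrating-neuron-like cells. Sema3a was higher in cKO cultures (0.90), with ratios of 0.05 over all cells, 0.21 in AP-like, -0.12 in IP-like and -0.33 in GE-like cells. Sema3f was higher in cKO cultures (1.37). Its ratio was 0.15 over all cells and 0.14 in AP-like cells, with intervals that held 0. In migrating-neuron-like cells it was 0.87, on 33 WT and 63 cKO UMIs. The differences between cultures and embryos were not tested.

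Cells with UMIs of a receptor pair were counted after each cell was thinned to 4000 UMIs. Nrp1 together with any plexin A was found in 85.0% of WT and 79.5% of cKO migrating-neuron-like cells, 34.2% and 47.2% of IP-like, 35.8% and 24.1% of immature-neuron-like, and 4.48% and 6.17% of AP-like cells. Without thinning these shares were 94.96% and 87.6%, 61.3% and 70.5%, 53.8% and 36.6%, and 12.96% and 16.05%. Red-blood-cell-like cells had median depths of 3537 and 3099.5 UMIs, against 11271 and 10382 in migrating-neuron-like cells. Their thinned share was 0% of 23 WT and 8.70% of 23 cKO cells, too few to tell whether the AP-like shares are background. Nrp2 with any plexin A was found in 29.2% and 30.1% of migrating-neuron-like cells. Any plexin A UMI was found in 99.2% and 99.8% of migrating-neuron-like cells, so the joint share there equals nearly the share with the neuropilin alone. In immature-neuron-like cells, Nrp1 with Sema3c was found in 5.12% and 3.78% of cells, against 2.57% and 1.51% from the product of the single shares. AP-like cells (1.12% and 0.943% against 0.295% and 0.366%), IP-like cells (5.32% and 7.68% against 3.57% and 6.06%) and GE-like cells also exceeded the product. In migrating-neuron-like cells the shares were close to it (31.9% and 30.1% against 31.6% and 29.6%).

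Genes with the most similar pattern over the 27 clusters were sought among 10270 others, by Pearson's r of log2(CPM + 1) over both libraries. Since clusters share the same libraries and differ in size, these values are descriptions. Nrp1 was most like Prex1 (r = 0.846) and Ptprk (0.793), and Nrp2 most like Slc38a10 (0.822) and Tspan14 (0.775). Plxna2 was most like Srrm4 (0.943) and Rnf165 (0.940), and Plxna1 most like Drosha (0.753) and Kyat1 (0.728). Plxna4 was most like Robo2 (0.938) and its own antisense gene Plxna4os3 (0.923), which shares 110 exon bases with it. Sema3c was most like Unc5d (0.891), a marker used to name the migrating class, and Cdh8 (0.884), Sema3a most like Nr2f1 (0.869) and Mir100hg (0.858), and Sema3f most like Zdhhc9 (0.864) and Agap2 (0.859). Among the members themselves, Plxna2 and Plxna4 (0.845) and Sema3c and Plxna4 (0.828) were the most alike, and Sema3c and Sema3f the least (-0.064).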

How the data were processed

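RNA-seq was available for 6 NPC cultures and scRNA-seq for 2 embryos, and 3 LACE-seq samples were not analysed here. For the cultures the authors deposited raw counts per gene, from paired reads filtered for quality and aligned to mm10 with HISAT2. No source used here gives the counting program, its annotation or its strand setting. For the embryos the authors deposited raw UMI counts of a filtered barcode list made with Cell Ranger 7.0.0. Every column of values was used. The 9 genes and all gene lists were chosen with earlier results of these data known.

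Counts were compared in R 4.3.3 with edgeR 4.0.16 (filterByExpr, TMM, robust quasi-likelihood test, Benjamini-Hochberg at 0.05). For 1 gene, an exact permutation test of 3 against 3 cannot give a p under 0.1. On simulated counts of these cultures the fit was tested before use. CPM per kb used merged exons of GENCODE M21, whose gene spans match 42164 of the 48440 genes; that of Nrp1 differed from the table's span.

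Barcodes under 200 genes or over 10% mitochondrial UMIs were dropped, and the others clustered with Seurat 5.3.0 (2000 variable genes, 30 components, 20 neighbours, resolution 0.8). A cluster took a name where its markers averaged 0.5 or more in standardized expression, with at least 3 markers raised 1.5-fold and without more markers of another class among its 10 leading genes. Scrublet in scanpy 1.11.5 marked 298 WT and 451 cKO cells as doublets, which were kept, and left out as an alternative. UMIs were summed per class and library, with exact Poisson intervals for CPM and Clopper-Pearson intervals for ratios and shares, all for counting error only. A count of 0 was taken to allow 3 counts.

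Genes other than the members were named as the largest called changes of a list (at most 3 each way), as the 2 genes most alike over clusters among those with at least 1000 UMIs (members, lists and predicted genes left out), or as the targeted gene. The genes most alike to Plxna3 are not reported here. Sox2, Tubb3, Neurod1 and Dlx1 (listed at 0), and Nrcam, Sema3b, Sema5a, Sema6a and Gm26811, were named after their values were seen. Alternatives were RLE and upper-quartile scaling, other count filters, DESeq2 1.42.0, limma-voom (limma 3.58.1), the replicate number as a block, sex of the culture, each culture left out, resolutions of 0.4 and 1.2, stricter cell filters, doublets left out, means over cells and equal weights for clusters. Classes without clusters 13 and 14, of low UMI counts, were added after seeing the data.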

Additional observations from a re-analysis of the deposited data

Results flagged for a closer look

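Nrp1 had opposite genotype ratios in 2 classes of the same embryos. Its log2 ratio of cKO over WT was 0.57 in IP-like and -0.80 in immature-neuron-like cells, with 95% counting intervals that did not hold 0, and the difference was not tested since each genotype has 1 embryo. In immature-neuron-like cells the cKO level (129 CPM) was no higher than that of cKO red-blood-cell-like cells (135 CPM), which should lack Nrp1. Those cells are shallower, so their CPM gives no floor for immature-neuron-like cells. Sema3a had a log2 ratio of 0.21 in AP-like and -0.33 in GE-like cells, and this difference was not tested for the same reason. Both pairs kept their signs under all 7 alternatives.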

How the results depend on the processing

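The count of genes called stayed within 1.5 times the 5701 of the edgeR fit under all 14 alternatives, and Nrp1, Nrp2, Sema3a, Sema3c and Sema3f were called in the same direction under each of the 14. The count of members called lower was 3 to 5 with single cultures left out, and Plxna1 was called under 9 and Plxna4 under 11 of 14 alternatives. The log2 difference of Plxna3 ran from -0.1857 to 0.03554 with single cultures left out, changing sign without WT replicate 3. Replicate numbers did not pair the cultures (correlations of same-numbered deviations 0.264, -0.0466 and 0.116), and with the replicate block 3216 genes were lower and 3189 higher, with no member's call changed. Sex of the culture as a covariate changed no member's call. In the embryos, 6 of 315 ratios under alternatives changed sign against an interval without 0. These were Nrp1 in migrating-neuron-like cells at resolution 0.4 (0.0665), Nrp2 in immature-neuron-like cells at resolution 1.2 (-0.0559), Plxna2 in AP-like cells without doublets (-0.11), and, with clusters weighted equally, Nrp1 in GE-like cells (0.0013), Plxna4 (-0.0746) and Sema3c (-0.44) in migrating-neuron-like cells. The cause of these changes was not tested. The Nrp1 ratio ran from -1.06 to -0.66 in immature-neuron-like and from 0.50 to 0.63 in IP-like cells. Depth limits Sema3f and the small classes, where single UMIs weigh most, and 1 embryo per genotype gives no spread between embryos.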

Other observations

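The 2 unnamed clusters held members too. In cluster 5, led by Crabp1 and Slit3 and with a median of 15333 UMIs, Nrp1 had 4756 UMIs in WT and 2392 in cKO, a log2 ratio of -1.01 (-1.08 to -0.94), Sema3c one of -0.45 (-0.64 to -0.26) and Sema3a one of 0.39 (0.20 to 0.59). Cluster 7, with a median of 1166 UMIs and Plxna4os3 among its leading genes, had Nrp1 at -0.41 (-0.59 to -0.23). These genes were named after their values were seen.

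Nrp1 read 91.1 CPM (WT) and 83.4 CPM (cKO) in GE-like cells, beside 22.2 and 135 CPM in the shallower red-blood-cell-like cells, which give no floor here. Within GE-like cells the ratio of Nrp1 varied between clusters. Its log2 ratio was 0.94 (0.60 to 1.29) in cluster 17, led by Isl1 and Ebf1, but -0.51 (-0.81 to -0.22) in cluster 9, led by Adarb2 and Six3. Nrp2 was higher in 4 of 5 GE-like clusters. No explanation was tested.

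Among pathway genes in AP-like cells, Sema6a had a log2 ratio of 0.68 (0.52 to 0.85). Sema5a had one of 0.45 (0.40 to 0.49), on 5957 UMIs in WT and 12028 in cKO. In the cKO cultures both were called lower (log2 fold changes of -0.25 ± 0.08 and -0.42 ± 0.09, edgeR adjusted p = 0.0215 and 0.0021). Both genes were named after their values were seen.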
